A study of Mus musculus with 12 samples.

Results

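The genes described here encode the ubiquitin ligase parts that targeted degraders recruit: Crbn, Vhl, Ddb1, Cul2, Cul4a, Cul4b, Rbx1, Mdm2, Xiap and Birc2. They were chosen by gene symbol, by a rule that uses no measured value although earlier results of these data were known, and are 10 of the 24787 genes in the deposited count tables. The study concerned PROTACs, compounds that tether a target protein to a ubiquitin ligase, and mitophagy, and it gave mice the compound MEC1, which is known here only by its code name. The ligase that MEC1 engages is not given in the sources used here. C57Bl/6 mice ate a high-fat diet (HFD) or a normal diet (ND) for 2 months. Mice on the HFD were then randomised to daily intraperitoneal MEC1 at 0.5 mg/kg, the HFD+MEC1 group, or to daily vehicle, the HFD group. The third group stayed on the ND, and whether its mice were injected is not given. Total RNA from whole liver was sequenced in 12 libraries, 4 per group. Sex, age and the length of dosing are not given, nor is it stated that each library came from a separate mouse, so p-values measure only the spread between these samples, which may be technical in part.

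A ubiquitin ligase brings a substrate next to a ubiquitin-loaded E2 enzyme so that the substrate is marked for the proteasome. In cullin-RING ligases a cullin scaffold holds the RING protein RBX1, which binds the E2, at one end, and an adaptor with an exchangeable substrate receptor at the other. CRBN sits on the adaptor DDB1 and on CUL4A or CUL4B and is the receptor bound by thalidomide and its relatives, whereas VHL sits on elongins B and C and CUL2 and hands the hydroxylated HIF transcription factors to degradation when oxygen is present. MDM2, XIAP and cIAP1, the product of Birc2, carry their own RING domains: MDM2 holds down p53 and the other 2 restrain caspases and cell death signalling.

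Libraries held 39916405 to 51340317 counts, and all 10 genes passed the filter on low counts that 14172 genes passed, with 383 to 9866 counts each in every library. Levels are in CPM, which are counts brought to a common library total with TMM factors and compare libraries for 1 gene, and as deposited RPKM, which is per length and also compares genes. Sums of marker genes are instead in CPM on plain library totals, without TMM factors. Liver identity was clear from 7 hepatocyte markers, which summed to 81624 to 116568 CPM in HFD+MEC1, 100843 to 117863 CPM in HFD and 97766 to 105872 CPM in ND libraries. Markers of acinar cells and skeletal muscle summed to at most 0.0858 and 0.0870 CPM in any library, with Cpa1 and Acta1 at 0 throughout. HFD+MEC1 replicate 3 stood apart from the other libraries on a principal component, and calls that are lost without it are named as such. In whole liver, fewer cells of a type and less RNA per cell cannot be told apart.

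The promoters of 3 of the genes are shown because Cul4a and Cul4b encode interchangeable scaffolds made in unequal amounts, and because Mdm2 is itself a target of the p53 that its protein restrains. Each window runs from 250 bases before to 50 bases after the transcription start, 5′ to 3′ on the gene's strand, from RefSeq on GRCm38.p6. Capitals mark GC boxes (GGGCGG on either strand) in Cul4a and Mdm2, and the CCAAT box (CCAAT on either strand) in Cul4b. The windows lie at chr8:13105373-13105672 on the plus strand for Cul4a, chrX:38576147-38576446 on the minus strand for Cul4b and chr10:117710709-117711008 on the minus strand for Mdm2.
Cul4a: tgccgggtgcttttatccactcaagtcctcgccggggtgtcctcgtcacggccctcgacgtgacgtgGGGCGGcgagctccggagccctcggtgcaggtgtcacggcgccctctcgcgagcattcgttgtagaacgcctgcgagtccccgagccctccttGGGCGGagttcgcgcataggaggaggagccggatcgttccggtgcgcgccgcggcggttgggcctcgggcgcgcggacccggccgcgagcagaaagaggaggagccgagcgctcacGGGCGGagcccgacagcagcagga
Cul4b: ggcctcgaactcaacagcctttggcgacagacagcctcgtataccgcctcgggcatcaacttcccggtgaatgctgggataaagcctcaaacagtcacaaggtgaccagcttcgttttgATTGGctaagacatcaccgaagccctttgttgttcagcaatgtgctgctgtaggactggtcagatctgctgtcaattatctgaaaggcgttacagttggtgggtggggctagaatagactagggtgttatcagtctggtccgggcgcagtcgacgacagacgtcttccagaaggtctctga
Mdm2: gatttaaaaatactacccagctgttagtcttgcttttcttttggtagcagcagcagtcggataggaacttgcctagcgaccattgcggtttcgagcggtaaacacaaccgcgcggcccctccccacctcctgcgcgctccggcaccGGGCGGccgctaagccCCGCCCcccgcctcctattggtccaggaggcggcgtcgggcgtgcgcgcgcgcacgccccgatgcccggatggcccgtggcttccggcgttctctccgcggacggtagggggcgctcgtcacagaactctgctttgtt
The Cul4a window was 71% G or C with 43 CpG pairs and held 3 GC boxes and no CCAAT box. Its paralog had a window of 52.3% G or C with 14 CpG pairs, no GC box and 1 CCAAT box. The Mdm2 window was 64.7% G or C with 35 CpG pairs, 2 GC boxes and 1 CCAAT box. The p53-responsive promoter of Mdm2 is known to lie in its first intron, outside this window.

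RefSeq held 12 such windows for 9 of the genes in the table used. Their median content was 62.2% G or C and 21.5 CpG pairs, against 52.7% and 7 CpG pairs over 32851 windows of all genes. GC boxes occurred in 9 of the 12 windows, from 8 genes, and in 35.7% of all windows. CCAAT boxes occurred in 4 of the 12 and in 37.4% of all windows, and the letters TATAAA, searched on both strands, in 2 of the 12 and in 13.6% of all. The HIF core ACGTG, also searched on both strands, occurred in 3 of the 12 windows and in 19.6% of all, and 2 of its matches lay in the Cul4a window. The E box CACGTG, which contains the HIF core, occurred in none of the 12 and in 7.15% of all windows. These matches describe letters only.

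All 10 ligase genes were transcribed in every liver, at levels that differed widely per length. Ddb1, the CUL4 adaptor that also serves DNA repair, had the highest level, with a mean of 35.0 RPKM over the 12 libraries and a range of 28.0 to 39.996 RPKM. Cul4a followed at 22.2 RPKM (18.4 to 25.7 RPKM), and both ranked in the same places in all 12 libraries. Xiap averaged 14.3 RPKM and Rbx1 13.5 RPKM, and these neighbours exchanged places between libraries. The VHL scaffold Cul2, at 8.56 RPKM, and the receptor Crbn, at 8.04 RPKM, also exchanged places. Below them came Mdm2 at 5.81 RPKM, Cul4b at 5.14 RPKM and Birc2 at 4.22 RPKM, and Vhl was lowest in every library with a mean of 3.17 RPKM (2.65 to 3.81 RPKM).

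Set against the 14172 tested genes, even Vhl lay above 52.9% of them by mean RPKM, and Ddb1 above 91.4%. Only 3 steps in this order were free of overlap between neighbouring ranges over the 12 libraries, those between Ddb1 and Cul4a, between Cul4a and Xiap and between Rbx1 and Cul2. Crbn was above Mdm2 and Birc2 above Vhl within each of the 12 libraries, although their ranges over libraries touched. Xiap was above Rbx1 in 10 of 12 libraries, and Cul2 above Crbn, Mdm2 above Cul4b and Cul4b above Birc2 in 9 of 12 each. The receptors that degraders bind, Crbn and Vhl, were thus each measured at a lower level than the adaptor Ddb1 and the RING protein Rbx1 in every library.

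**Figure D1:**
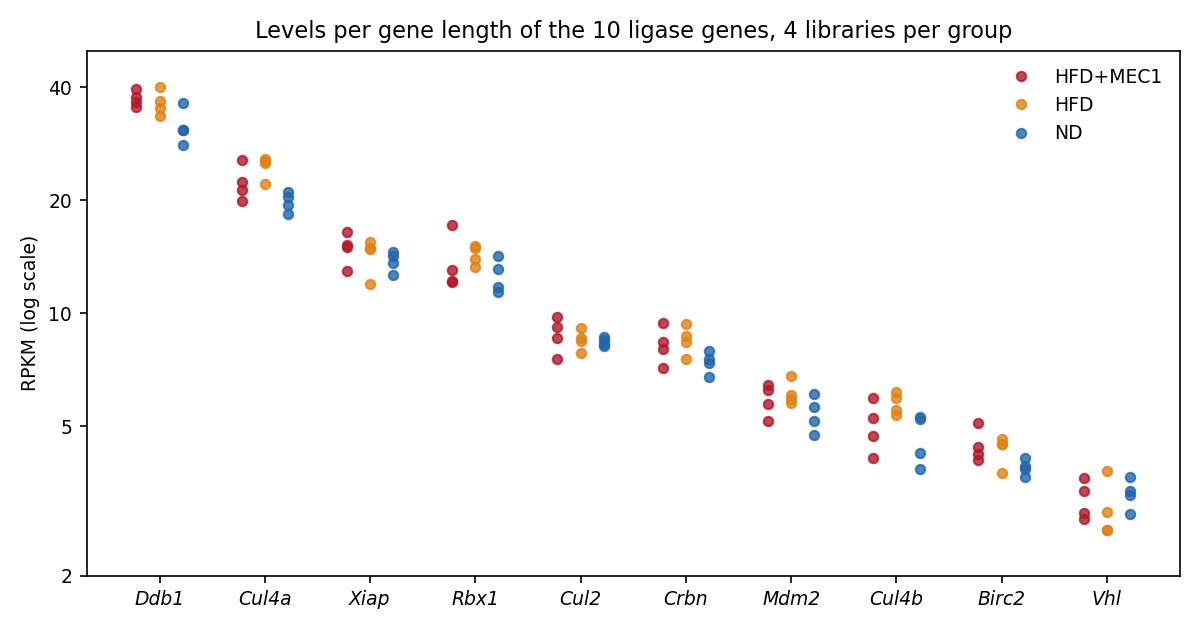
RPKM on a log axis for each ligase gene, ordered by mean level, with 1 point per liver library in HFD+MEC1, HFD and ND. Ddb1 lies between 28.0 and 39.996 RPKM and Vhl between 2.65 and 3.81 RPKM, and the spread between genes exceeds that between groups.

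The ligase genes also varied little between libraries. The SD of log2 CPM over the 12 libraries had a median of 0.13 over the 10 genes, against 0.25 over all tested genes, and 10 of 10 lay below that all-gene median. Cul2 varied least, with a coefficient of variation of 5.36% in CPM, and only 1.16% of tested genes had a smaller SD. Cul4b and Vhl varied most, with coefficients of 14.2% and 13.9%, and 40.3% and 37.7% of tested genes had a smaller SD. The highest library held less than 2 times the CPM of the lowest for 10 of 10 ligase genes, as it did for 57.7% of tested genes. The widest such span was 1.61 times, for Cul4b, and the narrowest 1.21 times, for Cul2. Genes matched for level were not compared, so the part of expression level in this small spread was not tested.

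The comparison of HFD+MEC1 with HFD asks what the compound did to these transcripts on the same diet, and none of the 10 differed past the threshold. With edgeR's quasi-likelihood test, 0 of 10 had an adjusted p under 0.05, against 4 of 14172 tested genes (0.0282%, with 0.00706% higher and 0.0212% lower), and 0 of 10 had an unadjusted p under 0.05, against 14.8% of tested genes. DESeq2 and limma-voom called 0 of 10 as well. No ligase gene had groups free of overlap, where 7.11% of tested genes did. The log2 changes ran from -0.19 for Cul4b to 0.09 for Vhl with a median of 0.01, 5 positive and 5 negative, and the median over all tested genes was also 0.01. Every 95% interval, each taken singly, lay between 0.726 and 1.31 times the HFD level, and thus excluded a change of 1.5-fold in either direction. In a simulation of this comparison with 14172 genes, 67% of genes changed by 1 on the log2 scale were recovered and 88% of those changed by 2.

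The comparison of HFD with ND sets the diets against each other, with vehicle injections in the HFD group, and again no ligase gene passed. By edgeR's test 0 of 10 changed, against 893 of 14172 tested genes (6.3%), and DESeq2 and limma-voom called 0 of 10. An unadjusted p under 0.05 was reached by 1 of 10, Cul4a, against 20.7% of tested genes. Groups were free of overlap for 2 of 10, with Cul4a higher and Cul2 lower in HFD, against 14.3% of tested genes. The log2 changes ran from -0.22 for Vhl to 0.22 for Cul4a with a median of 0.08, beside an all-gene median of 0.00. They were positive for 7 of 10, against 49.4% of tested genes. The 95% intervals lay between 0.701 and 1.39 times the ND level.

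Treated mice on the HFD were also set against ND mice. Here 0 of 10 ligase genes changed by edgeR's test, against 644 of 14172 tested genes (4.54%), and DESeq2 and limma-voom called 0 of 10. An unadjusted p under 0.05 was reached by 0 of 10, against 19.1% of tested genes, and groups were free of overlap for 0 of 10, against 11% of tested genes. The log2 changes ran from -0.13 for Vhl to 0.17 for Ddb1 with a median of 0.03, and were positive for 8 of 10, against 50.6% of tested genes. The 95% intervals lay between 0.746 and 1.26 times the ND level. This comparison shares the HFD+MEC1 libraries with the first and the ND libraries with the second.

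**Figure D2:**
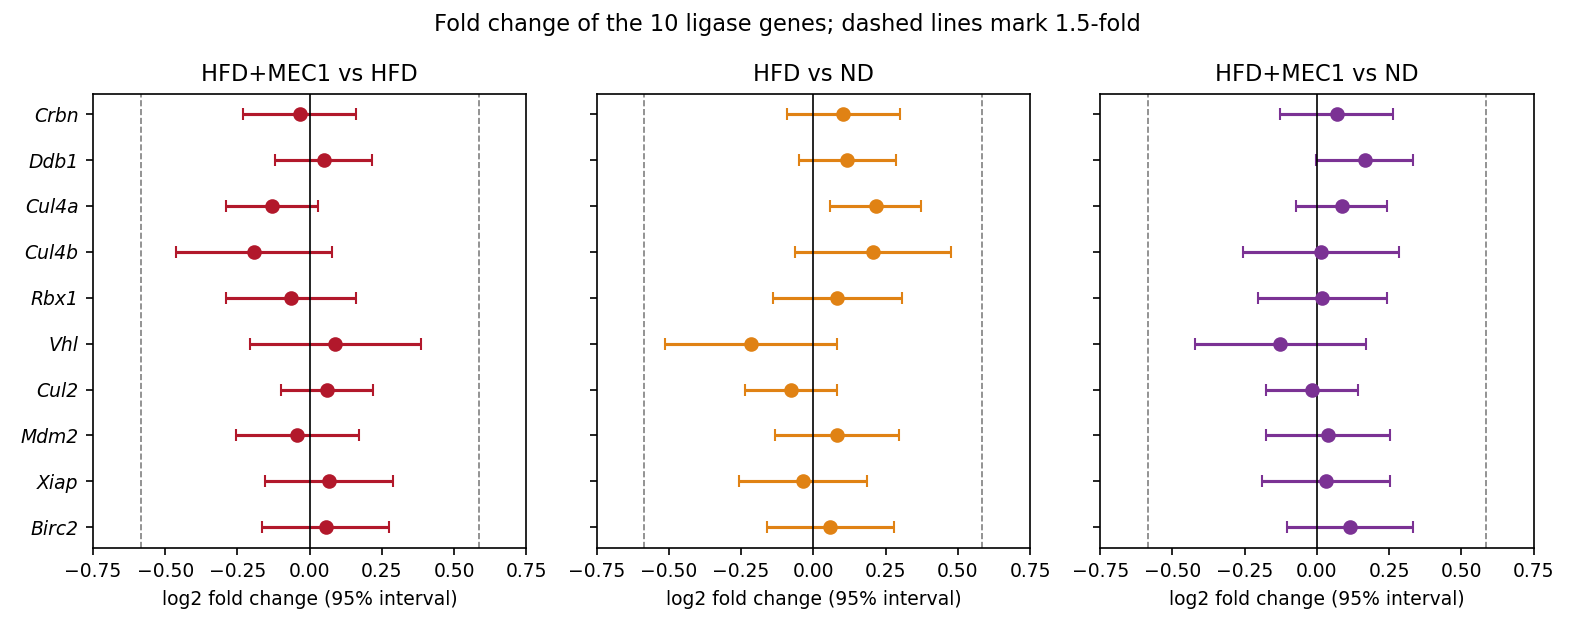
Log2 fold change with its 95% interval for each ligase gene in HFD+MEC1 against HFD, HFD against ND and HFD+MEC1 against ND, from edgeR. Most intervals include 0, and the Cul4a interval for HFD against ND does not, at 1.04 to 1.30 times the ND level.

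Crbn encodes cereblon, the receptor of the CUL4 ligase that thalidomide-type degraders use, and lies on chromosome 6 (GRCm38, chr6:106780201-106800077, minus strand). It had 44.0, 36.8, 43.2 and 42.4 CPM in HFD+MEC1, 47.0, 44.9, 39.4 and 39.2 CPM in HFD, and 39.9, 42.3, 34.8 and 41.6 CPM in ND livers. The 3 groups overlapped throughout, with means of 41.6 ± 3.28, 42.6 ± 3.93 and 39.7 ± 3.37 CPM in HFD+MEC1, HFD and ND (SD, n = 4 each). Its log2 change was -0.03 ± 0.09 (SE) in HFD+MEC1 against HFD (edgeR adjusted p = 0.901). Against ND, the HFD change was 0.10 ± 0.09 (edgeR adjusted p = 0.578). On the opposite strand Trnt1 overlaps 2.06% of its exonic bases, and the use of strand in counting is not given.

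Ddb1 (chr19:10605327-10629819, plus strand) links cereblon and the other CUL4 receptors to the scaffold. It had 190, 194, 200 and 193 CPM in HFD+MEC1, 191, 179, 194 and 188 CPM in HFD, and 172, 162, 192 and 167 CPM in ND livers. Of the ND libraries 3 lay below every library on the HFD and replicate 3 lay among them. Its log2 change in HFD+MEC1 against ND was 0.17 ± 0.08, with an interval of 0.999 to 1.26 times the ND level (edgeR adjusted p = 0.267). The exons of Tkfc cover 5.12% of its exonic bases on the opposite strand.

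Cul4a (chr8:13105621-13147940, plus strand) encodes the first of the paired scaffolds of this ligase, and its promoter is printed above. It had 107, 98.4, 92.6 and 106 CPM in HFD+MEC1, 115, 116, 109 and 102 CPM in HFD, and 94.9, 92.8, 97.0 and 96.0 CPM in ND livers. Every HFD library lay above every ND library, whereas the HFD+MEC1 libraries spread over both. The log2 change was 0.22 ± 0.07 in HFD against ND (edgeR unadjusted p = 0.0106, adjusted p = 0.101). With plain library totals in place of TMM factors the same change was 0.34 (edgeR adjusted p = 0.0394), a scaling that moved the median of all tested genes to 0.12. Against HFD, the HFD+MEC1 change was -0.13 ± 0.07, an interval of 0.819 to 1.02 times the HFD level (edgeR adjusted p = 0.438).

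Cul4b, the X-linked paralog (chrX:38533274-38576196, minus strand), was the most variable of the set. It had 34.7, 30.4, 26.6 and 34.7 CPM in HFD+MEC1, 37.5, 39.9, 32.4 and 34.7 CPM in HFD, and 35.4, 37.0, 24.7 and 27.9 CPM in ND livers. Replicate 3 was the lowest library of each group, and the groups overlapped. The log2 change was -0.19 ± 0.13 in HFD+MEC1 against HFD (edgeR adjusted p = 0.511), the most negative of the set in that comparison, and the interval reached from 0.726 to 1.06 times the HFD level. Between HFD and ND it was 0.21 ± 0.13, an interval of 0.958 to 1.39 times the ND level (edgeR adjusted p = 0.383).

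Rbx1 (chr15:81466296-81476369, plus strand) supplies the RING domain to both the CRBN and the VHL ligases. It had 32.8, 25.5, 27.5 and 26.3 CPM in HFD+MEC1, 27.3, 31.5, 29.1 and 29.4 CPM in HFD, and 31.5, 30.0, 24.7 and 24.5 CPM in ND livers. No group was set apart, with log2 changes of -0.06 ± 0.11 in HFD+MEC1 against HFD (edgeR adjusted p = 0.824) and 0.08 ± 0.11 in HFD against ND (edgeR adjusted p = 0.716). The annotation names 1 pseudogene each for Rbx1 and Vhl, so reads may have been shared with them.

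**Figure D3:**
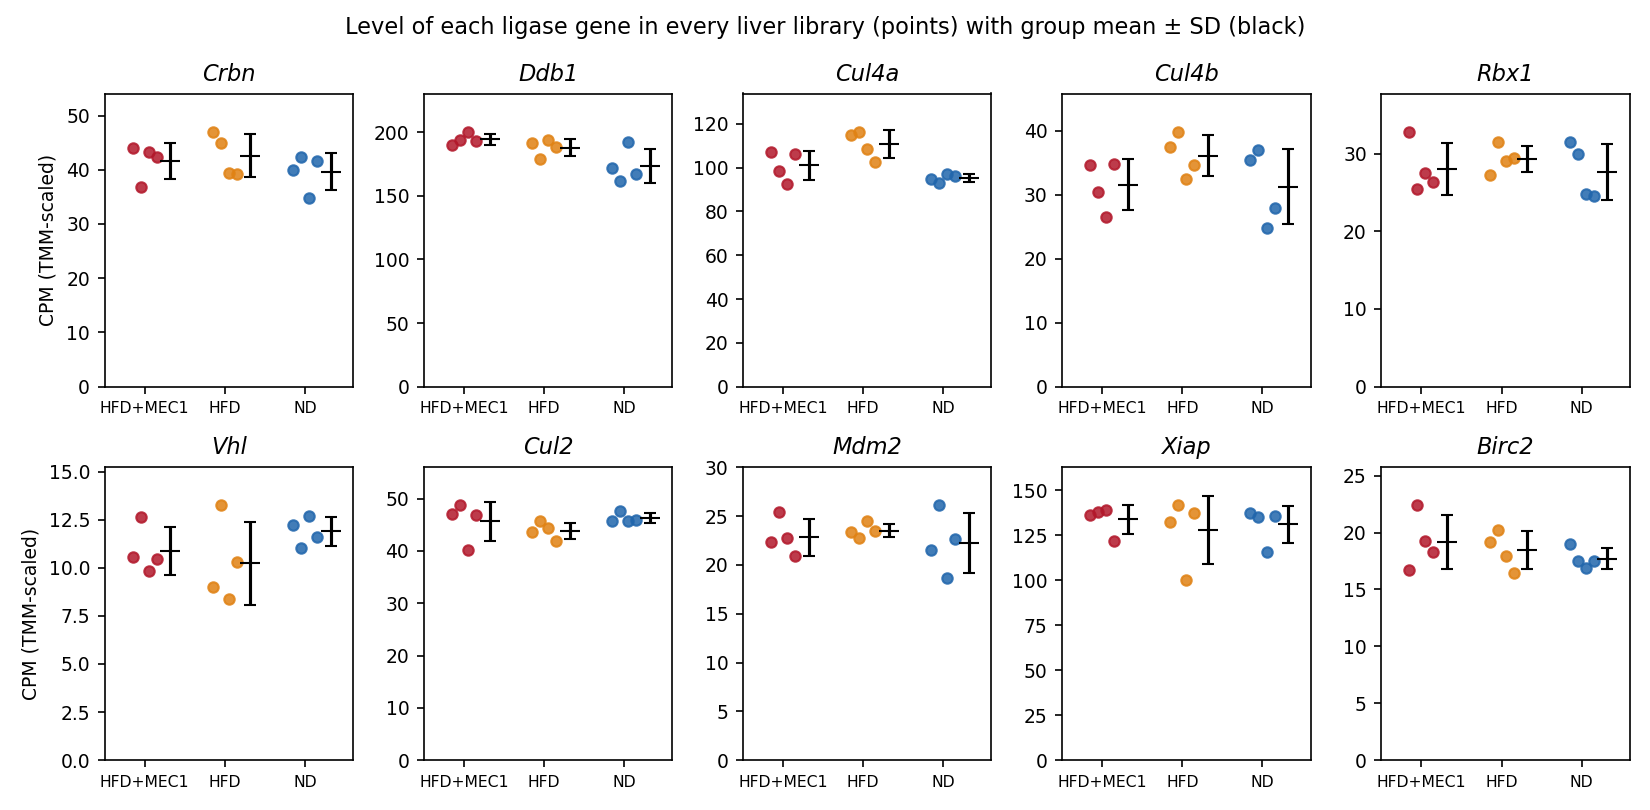
CPM in each liver library for the 10 ligase genes, with 1 panel per gene, HFD+MEC1, HFD and ND from left to right, and bars at the mean ± SD (n = 4). For Cul4a every HFD library lies above every ND library, and for Cul2 every HFD library lies below every ND library.

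Vhl (chr6:113623959-113631633, plus strand) encodes the von Hippel-Lindau receptor and was the lowest of the set. It had 10.6, 12.7, 9.83 and 10.4 CPM in HFD+MEC1, 8.97, 13.2, 8.38 and 10.3 CPM in HFD, and 12.2, 11.02, 12.7 and 11.6 CPM in ND livers. HFD replicate 2 had the highest value of all 12 libraries while the other 3 HFD libraries lay below every ND library. The log2 change was -0.22 ± 0.14 in HFD against ND, an interval of 0.701 to 1.06 times the ND level (edgeR adjusted p = 0.413), and -0.37 without HFD replicate 2. The HFD+MEC1 change against HFD was 0.09 ± 0.14, an interval of 0.866 to 1.31 times the HFD level (edgeR adjusted p = 0.817).

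Cul2, the scaffold on which VHL is assembled, lies on chromosome 18 (chr18:3382988-3436377, plus strand). It had 47.0, 48.7, 40.2 and 46.8 CPM in HFD+MEC1, 43.6, 45.6, 44.3 and 41.8 CPM in HFD, and 45.7, 47.7, 45.7 and 45.9 CPM in ND livers. The HFD libraries all lay below the ND libraries, although the closest pair differed by little. Its log2 change in HFD against ND was -0.08 ± 0.08 (edgeR adjusted p = 0.618), and its sign depended on the scaling, at 0.05 with plain library totals and 0.02 on the deposited RPKM. In HFD+MEC1 against HFD the change was 0.06 ± 0.08 (edgeR adjusted p = 0.765).

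Mdm2 (chr10:117688875-117710758, minus strand), the ligase for p53 that nutlin-based degraders recruit, differed little. It had 22.3, 25.4, 22.7 and 20.9 CPM in HFD+MEC1, 23.4, 22.8, 24.5 and 23.5 CPM in HFD, and 21.5, 26.1, 18.7 and 22.7 CPM in ND livers. The HFD libraries lay inside the range of the ND libraries. Its log2 change was -0.04 ± 0.10 in HFD+MEC1 against HFD (edgeR adjusted p = 0.887). In HFD against ND it was 0.08 ± 0.10, an interval of 0.912 to 1.23 times the ND level (edgeR adjusted p = 0.707).

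Xiap (chrX:42059679-42109656, plus strand) encodes an inhibitor of caspases that IAP-based degraders recruit. It had 136, 138, 139 and 122 CPM in HFD+MEC1, 132, 142, 100 and 137 CPM in HFD, and 137, 135, 116 and 136 CPM in ND livers. A single library was low in each group, replicate 4 in HFD+MEC1 and replicate 3 in HFD and in ND. The log2 change was 0.07 ± 0.10 in HFD+MEC1 against HFD (edgeR adjusted p = 0.818). Against ND, the HFD change was -0.04 ± 0.10 (edgeR adjusted p = 0.888), with the sign reversed under plain library totals and on the deposited RPKM.

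Birc2 (chr9:7818227-7837064, minus strand) encodes cIAP1, which ubiquitinates itself and RIPK1 in tumour necrosis factor signalling. It had 16.7, 22.4, 19.3 and 18.3 CPM in HFD+MEC1, 19.2, 20.3, 17.9 and 16.5 CPM in HFD, and 19.0, 17.5, 16.9 and 17.5 CPM in ND livers. HFD+MEC1 replicate 2 was the highest of the 12, and the groups overlapped. The log2 change was 0.05 ± 0.10 in HFD+MEC1 against HFD (edgeR adjusted p = 0.854) and 0.06 ± 0.10 in HFD against ND (edgeR adjusted p = 0.800).

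Ratios taken within a library remove the scaling and compare partners directly. Cul4a stood 4.25 to 4.85 times as high as Cul4b per length in HFD+MEC1 livers, 4.07 to 4.66 times in HFD and 3.49 to 5.46 times in ND livers. On the log2 scale the ratio averaged 2.16 ± 0.09 in HFD+MEC1, 2.09 ± 0.09 in HFD and 2.10 ± 0.30 in ND livers (SD, n = 4 each). Crbn stood 1.96 to 2.96 times as high as Vhl in HFD+MEC1, 2.28 to 3.52 times in HFD and 1.84 to 2.58 times in ND livers. Xiap exceeded Birc2 in every library, since the ratio of Birc2 to Xiap was 0.256 to 0.340 in HFD+MEC1, 0.250 to 0.374 in HFD and 0.269 to 0.305 in ND livers. Exact two-sided permutation tests of the 3 ratios in the 3 comparisons, adjusted over the 9 tests, gave adjusted p-values of 0.814 to 0.971. The smallest p that 4 against 4 libraries allow is 0.0286 before adjustment. The largest difference was 0.34 on the log2 scale, for Crbn over Vhl in HFD against ND (exact permutation p = 0.143).

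The machinery around the scaffolds was read from pathway lists. Of tested genes 14.8%, 20.7% and 19.1% had an edgeR unadjusted p under 0.05 in HFD+MEC1 against HFD, HFD against ND and HFD+MEC1 against ND. In the same order DESeq2 called 389 of 13615, 1388 of 13890 and 1155 of 14165 genes. The list counts below are to be read beside these shares. Of 11 other cullins and linkers, Skp1a, the adaptor of the CUL1 ligases, rose in HFD against ND by edgeR, as 3.35% of all tested genes did, and none fell. Skp1a averaged 223 ± 19.4 CPM in HFD, against 159 ± 17.3 CPM in ND livers, a log2 change of 0.49 ± 0.11 (edgeR adjusted p = 0.0143), and no HFD library overlapped the ND libraries. Without ND replicate 4 and without HFD replicate 3 this call was lost, with edgeR adjusted p up to 0.0567. In HFD+MEC1 livers it averaged 168 ± 23.4 CPM, a log2 change of -0.41 ± 0.11 against HFD (edgeR adjusted p = 0.127), which DESeq2 called. The median log2 change of the list was -0.02 in HFD+MEC1 against HFD, 0.08 in HFD against ND and 0.04 in HFD+MEC1 against ND.

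The steps that switch cullins on and off gave no call in any comparison by edgeR. None of 14 genes of the NEDD8 cycle, which activates cullins by attaching NEDD8, passed, with 0, 1 and 1 at an unadjusted p under 0.05 in HFD+MEC1 against HFD, HFD against ND and HFD+MEC1 against ND. Nae1, part of the NEDD8-activating enzyme, had 16.8 ± 1.26 CPM in HFD+MEC1 and 19.8 ± 0.695 CPM in ND livers (edgeR adjusted p = 0.143). Cand1, which exchanges cullin receptors, had 58.2 ± 0.921 CPM in HFD and 64.4 ± 3.90 CPM in ND livers (edgeR adjusted p = 0.240). None of 10 genes of the COP9 signalosome, which removes NEDD8, passed, with 0, 3 and 1 at an unadjusted p under 0.05 in the same order of comparisons. Cops6 had 110 ± 5.37 CPM in HFD+MEC1 and 91.2 ± 7.54 CPM in ND livers, a log2 change of 0.27 ± 0.08 (edgeR adjusted p = 0.0605) that DESeq2 called. Cops7b had 7.42 ± 0.644 CPM in HFD and 5.53 ± 1.07 CPM in ND livers (edgeR adjusted p = 0.111).

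Enzymes and receptors that meet the same ligases were mostly level as well. None of 9 partner E2 enzymes passed by edgeR, DESeq2 or limma-voom, with 1, 0 and 0 at an unadjusted p under 0.05. The smallest unadjusted p was that of Ube2k, at 43.2 ± 3.62 CPM in HFD+MEC1 and 52.8 ± 3.24 CPM in HFD livers (edgeR adjusted p = 0.177). Ube2g1, an E2 that works with cereblon, had 61.4 ± 1.67 CPM in HFD and 54.4 ± 2.66 CPM in ND livers (edgeR adjusted p = 0.258). None of 18 other CUL4 receptors passed by any of the 3 tools, with 1, 2 and 0 at an unadjusted p under 0.05. Among them Dcaf6 had 21.1 ± 2.85 CPM in HFD+MEC1 and 17.9 ± 1.69 CPM in HFD livers (edgeR adjusted p = 0.306). Ddb2, a receptor for damaged DNA whose exons overlap those of Acp2 on the opposite strand over 23.8% of their length, had 8.99 ± 0.502 CPM in HFD and 10.8 ± 1.498 CPM in ND livers (edgeR adjusted p = 0.233). None of 12 other ligases used by degraders passed by any of the 3 tools, with 0, 0 and 1 at an unadjusted p under 0.05. Rnf114 had 58.8 ± 7.84 CPM in HFD+MEC1 and 51.1 ± 2.15 CPM in ND livers (edgeR adjusted p = 0.240), and Fem1b 20.2 ± 1.63 CPM in HFD and 23.8 ± 3.32 CPM in ND livers (edgeR adjusted p = 0.246).

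Klhdc3, a CUL2 receptor that reads protein C-termini, was the only one of 9 other CUL2 receptors that changed by edgeR. The call was a rise in HFD+MEC1 against ND, where 2.15% of tested genes rose and 2.4% fell. In HFD against ND DESeq2 called Klhdc3 higher and Fem1a lower. Fem1a had 31.8 ± 2.61 CPM in HFD and 40.4 ± 6.17 CPM in ND livers. Klhdc3 rose to 52.4 ± 5.37 CPM in HFD+MEC1, against 37.8 ± 6.83 CPM in ND livers, a log2 change of 0.47 ± 0.11 (edgeR adjusted p = 0.0256). The call was lost in a fit of these groups alone, and without ND replicate 1, 2 or 4 or HFD+MEC1 replicate 3 or 4, with log2 changes of 0.40 to 0.60 without single libraries. Mea1 overlaps 10.6% of its exonic bases on the opposite strand. In HFD livers it had 48.7 ± 3.18 CPM, a log2 change of 0.36 ± 0.11 against ND (edgeR adjusted p = 0.0673).

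Cereblon's known substrates and partners gave 1 call by edgeR among 13 tested genes, a fall in HFD+MEC1 against ND, where 2.4% of all tested genes fell. Prkaa2, which encodes 1 of the catalytic subunits of AMPK, fell to 55.7 ± 6.82 CPM in HFD+MEC1, against 73.7 ± 5.16 CPM in ND livers, a log2 change of -0.40 ± 0.09 (edgeR adjusted p = 0.0222). The HFD+MEC1 libraries, at 46.5 to 61.7 CPM, all lay below the ND libraries, at 69.1 to 79.3 CPM. Against HFD livers, at 72.5 ± 5.25 CPM, the log2 change was -0.38 ± 0.09 (edgeR adjusted p = 0.101), which DESeq2 called and limma-voom did not. The call against ND was lost in 8 of 23 alternatives, among them those without ND replicate 1 or 4 or HFD+MEC1 replicate 2 or 3 (edgeR adjusted p up to 0.0799). The median log2 change of the list was -0.05 in HFD+MEC1 against HFD, 0.01 in HFD against ND and -0.01 in HFD+MEC1 against ND. Prkaa1, which encodes the other AMPK catalytic subunit, was not called by edgeR in any comparison. It had 12.8 ± 2.02 CPM in HFD+MEC1, 14.6 ± 1.55 CPM in HFD and 14.7 ± 1.43 CPM in ND livers.

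VHL acts on HIF, and of 22 tested HIF genes and targets 2 fell in HFD against ND by edgeR and none rose, against 2.95% of all tested genes that fell and 3.35% that rose. Vegfa, the vascular growth factor, fell to 51.2 ± 10.2 CPM in HFD, against 81.1 ± 16.7 CPM in ND livers, a log2 change of -0.66 ± 0.15 (edgeR adjusted p = 0.0166). It was also lower in HFD+MEC1, at 52.3 ± 5.51 CPM, by a log2 change of -0.63 ± 0.15 against ND (edgeR adjusted p = 0.0256). The first of these calls was lost without HFD replicate 3 (edgeR adjusted p = 0.0597), and the other without ND replicate 1, 2 or 4 or HFD+MEC1 replicate 3 or 4 (edgeR adjusted p up to 0.0816) and on the deposited RPKM. Slc2a1, the glucose transporter GLUT1, fell to 7.22 ± 1.63 CPM in HFD, against 11.2 ± 1.12 CPM in ND livers, a log2 change of -0.63 ± 0.16 (edgeR adjusted p = 0.0311). Plain library totals and the deposited RPKM ended that last call, and so did leaving out ND replicate 1, 2 or 4 or HFD replicate 1, 2 or 4 (edgeR adjusted p up to 0.0800).

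Epas1, which encodes HIF-2α, was the one gene of this list that rose in HFD+MEC1 against ND by edgeR, and Vegfa the one that fell. Over all tested genes 2.15% rose and 2.4% fell there. DESeq2 called 5 of the list, with Ndrg1 higher and Hif1a and Tfrc lower besides Epas1 and Vegfa. Hif1a had 38.8 ± 2.09 CPM in HFD+MEC1 and 47.8 ± 5.25 CPM in ND livers, and Tfrc 21.2 ± 10.4 and 52.3 ± 4.79 CPM. Epas1 averaged 186 ± 20.02 CPM in HFD+MEC1, against 126 ± 21.1 CPM in ND livers, a log2 change of 0.56 ± 0.13 (edgeR adjusted p = 0.0241). Without ND replicate 1 or 2 or HFD+MEC1 replicate 3 the call was lost, with edgeR adjusted p up to 0.0683. The HFD+MEC1 libraries, at 168 to 215 CPM, all lay above the ND libraries, at 95.7 to 142 CPM, and above the HFD libraries, at 119 to 167 CPM. Against HFD the log2 change was 0.48 ± 0.13 (edgeR adjusted p = 0.134). Slc2a1 differed by 0.58 ± 0.16 in the same comparison (edgeR adjusted p = 0.138), at 10.8 ± 1.76 CPM in HFD+MEC1 and 7.22 ± 1.63 CPM in HFD livers. By edgeR 0 of 22 changed in HFD+MEC1 against HFD, with 4 at an unadjusted p under 0.05, against 14.8% of tested genes. DESeq2 called 3, Epas1, Slc2a1 and Pdk1, against 389 of 13615 genes in all, and limma-voom none. Pdk1, a kinase that inhibits pyruvate dehydrogenase, went the other way from the first pair, at 52.6 ± 17.6 CPM in HFD+MEC1 and 90.0 ± 12.7 CPM in HFD livers, a log2 change of -0.77 ± 0.19 (edgeR adjusted p = 0.113). The list's median log2 change was -0.09 in HFD+MEC1 against HFD, 0.09 in HFD against ND and -0.05 in HFD+MEC1 against ND.

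Some of the p53 genes that MDM2 governs differed between the diets, while Mdm2 itself did not pass. Of 24 tested p53 pathway genes 7 rose by edgeR and none fell in HFD against ND, against 3.35% of tested genes that rose and 2.95% that fell. The list's median log2 change was 0.38, beside an all-gene median of 0.00, with 17 positive and 7 negative. In HFD+MEC1 against ND 4 rose and none fell, against 2.15% of tested genes that rose and 2.4% that fell, and the median was 0.33. The count that rose in HFD against ND was 3 without ND replicate 4 and 3 without HFD replicate 3.

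Ccng1, the cyclin G1 gene and a p53 target, rose in both groups on the HFD. It had 53.2 to 69.9 CPM in HFD, against 32.9 to 39.0 CPM in ND livers, a log2 change of 0.83 ± 0.10 (edgeR adjusted p = 0.000371). In HFD+MEC1 livers it had 47.9 to 62.1 CPM, a log2 change of 0.61 ± 0.10 against ND (edgeR adjusted p = 0.00372). Both calls held under all 23 alternatives. Eda2r, a member of the tumour necrosis factor receptor family that p53 induces, was low in all groups. It rose in HFD, where it had 2.59 to 3.05 CPM, against 0.0967 to 0.730 CPM in ND livers, a log2 change of 2.81 ± 0.48 (edgeR adjusted p = 0.00364). In HFD+MEC1 it spread over 1.34 to 4.83 CPM, a log2 change of 2.85 ± 0.48 against ND (edgeR adjusted p = 0.00436).

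Cdkn1a, which encodes the cell cycle inhibitor p21, had 54.0, 53.4, 86.3 and 98.3 CPM in HFD+MEC1, 36.8, 74.2, 67.9 and 50.2 CPM in HFD, and 9.80, 19.3, 24.6 and 18.5 CPM in ND livers. All libraries on the HFD, with or without MEC1, lay above all ND libraries. The log2 change was 2.02 ± 0.34 in HFD+MEC1 against ND (edgeR adjusted p = 0.00936). Between HFD and ND it was 1.67 ± 0.33 (edgeR adjusted p = 0.0172), a call lost without ND replicate 4 and without HFD replicate 3 (edgeR adjusted p up to 0.0577). Perp, a desmosome-associated p53 target, rose to 121 ± 5.36 CPM in HFD, against 80.2 ± 7.28 CPM in ND livers, a log2 change of 0.59 ± 0.09 (edgeR adjusted p = 0.00192) that held under all 23 alternatives.

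A further 4 p53 targets rose against ND. Trp53inp1, an autophagy and stress factor, averaged 135 ± 10.1 CPM in HFD, against 69.5 ± 29.4 CPM in ND livers (log2 change 0.96 ± 0.23, edgeR adjusted p = 0.0274). Ei24, a membrane protein with a role in autophagy, averaged 228 ± 14.9 CPM in HFD, against 177 ± 8.91 CPM in ND livers (log2 change 0.37 ± 0.08, edgeR adjusted p = 0.0166). Aen, an apoptosis nuclease, averaged 17.3 ± 2.65 CPM in HFD, against 12.004 ± 0.317 CPM in ND livers (log2 change 0.52 ± 0.15, edgeR adjusted p = 0.0475). Zmat3, an RNA-binding p53 target, rose in HFD+MEC1 to 9.68 ± 0.784 CPM, against 7.23 ± 0.190 CPM in ND livers (log2 change 0.42 ± 0.11, edgeR adjusted p = 0.0387). Of 23 alternatives, 7 ended the call of Trp53inp1, 2 that of Ei24, 10 that of Aen and 13 that of Zmat3. The omissions that did so were ND replicate 1, 2 or 4 or HFD replicate 1, 2 or 3 for Trp53inp1 and ND replicate 4 or HFD replicate 3 for Ei24. For Aen they were any ND replicate, HFD replicate 1, 2 or 3 or HFD+MEC1 replicate 4, and for Zmat3 any ND or HFD+MEC1 replicate or HFD replicate 1. The highest edgeR adjusted p without 1 library was 0.0855 for Trp53inp1, 0.0603 for Ei24, 0.141 for Aen and 0.109 for Zmat3. Trp53 itself had 14.8 ± 2.52 CPM in HFD+MEC1, 12.4 ± 2.71 CPM in HFD and 12.7 ± 0.507 CPM in ND livers.

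In HFD+MEC1 against HFD, 0 of the 24 p53 pathway genes changed by edgeR, with 3 at an unadjusted p under 0.05, against 14.8% of tested genes. The median log2 change was 0.03, with 13 positive and 11 negative. Perp had the smallest p of those named, at 91.9 ± 11.5 CPM in HFD+MEC1 and 121 ± 5.36 CPM in HFD livers, a log2 change of -0.39 ± 0.09 (edgeR adjusted p = 0.101). DESeq2 called 1 gene of the list, Perp, against 389 of 13615 genes in all, and limma-voom none.

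**Figure D4:**
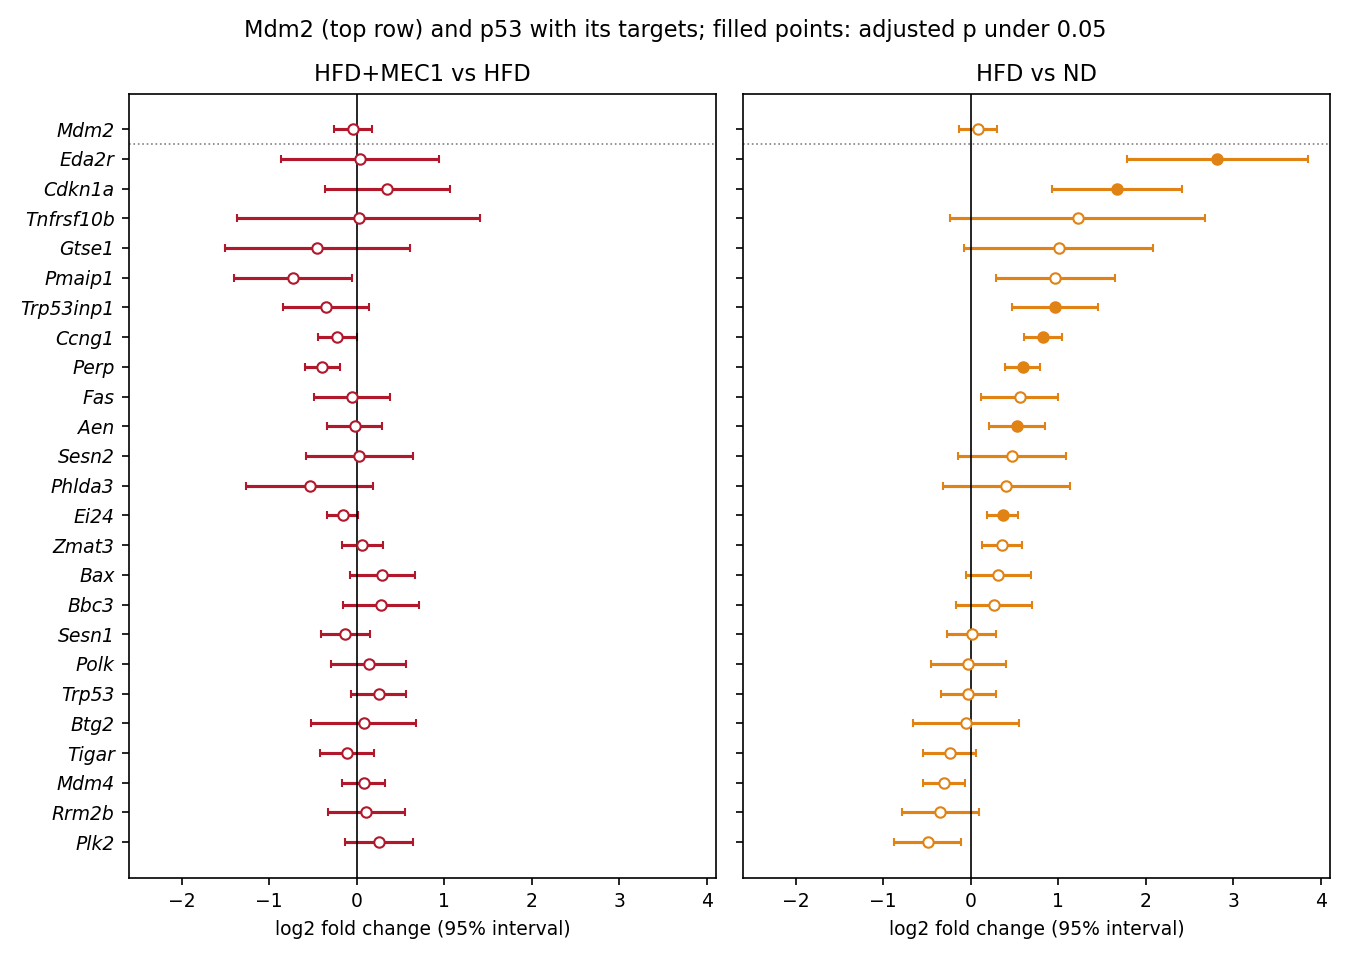
Log2 fold change with its 95% interval, from edgeR, for Mdm2 in the top row and p53 with its targets below. The panels show HFD+MEC1 against HFD and HFD against ND, and filled points mark an edgeR adjusted p under 0.05. Of the 24 p53 pathway genes 7 are filled in HFD against ND and 0 in HFD+MEC1 against HFD. The Mdm2 interval includes 0 in both.

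Partners of the IAP proteins included caspases, the proteases of cell death. Of 20 tested genes of this list 1 rose and 2 fell in HFD+MEC1 against ND by edgeR. Over all tested genes 2.15% rose and 2.4% fell in that comparison. DESeq2 called 5 of the list there, Birc3 lower among them, against 1155 of 14165 genes in all. In HFD against ND it called 2 of the list, Relb higher among them, against 1388 of 13890. Casp9, the initiator of the mitochondrial pathway that XIAP inhibits, fell in HFD+MEC1 to 14.6 ± 1.41 CPM, against 19.6 ± 1.46 CPM in ND livers (log2 change -0.42 ± 0.10, edgeR adjusted p = 0.0224). Casp8, the initiator downstream of death receptors, rose there to 32.7 ± 4.52 CPM, against 24.9 ± 2.23 CPM in ND livers (log2 change 0.39 ± 0.10, edgeR adjusted p = 0.0391). HFD livers without MEC1 lay between these means, at 16.8 ± 1.22 CPM of Casp9 and 31.1 ± 1.41 CPM of Casp8. Their log2 changes against ND were -0.22 ± 0.10 for Casp9 (edgeR adjusted p = 0.217) and 0.32 ± 0.10 for Casp8 (edgeR adjusted p = 0.0736). Both calls in HFD+MEC1 against ND lay near the threshold, and of 23 alternatives 6 ended that of Casp9 and 11 that of Casp8. Casp9 lost its call without ND replicate 1 or HFD+MEC1 replicate 4, and Casp8 without any of 8 libraries, HFD+MEC1 replicate 3 among them. The highest edgeR adjusted p without 1 library was 0.0794 for Casp9 and 0.108 for Casp8. In HFD+MEC1 against HFD 0 of 20 tested genes of this list changed by edgeR, DESeq2 or limma-voom, with a median log2 change of 0.04. There 1 had an edgeR unadjusted p under 0.05, against 14.8% of tested genes.

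Sums of non-parenchymal markers, again on plain library totals, differed between groups for some cell types. Macrophage markers summed to 330 to 403 CPM in HFD+MEC1, 255 to 421 CPM in HFD and 201 to 315 CPM in ND libraries. The 6 sinusoidal endothelial markers summed to 227 to 265 CPM in HFD+MEC1, 226 to 265 CPM in HFD and 143 to 220 CPM in ND libraries. On these plain library totals neither group on the HFD overlapped ND, and whether this holds with TMM factors was not tested. Stellate cell markers summed to 149 to 292 CPM in HFD+MEC1, 117 to 276 CPM in HFD and 173 to 306 CPM in ND libraries. Adipocyte markers summed to 0.156 to 14.6 CPM in HFD+MEC1, 2.46 to 15.8 CPM in HFD and 0.0401 to 1.24 CPM in ND libraries. Only 1 of these 4 markers passed the filter on low counts, and Plin1 and Lep were at 0 in all libraries. By edgeR Cps1, 1 of 7 hepatocyte markers, fell in both comparisons with ND. In HFD+MEC1 against ND Clec4g, 1 of 6 endothelial markers, rose and Epcam, 1 of 5 cholangiocyte markers, fell. Over all tested genes 2.95% fell in HFD against ND, and 2.4% fell and 2.15% rose in HFD+MEC1 against ND. No macrophage, stellate cell or lymphocyte marker was called in any comparison. The part of these cell types in the changes of p53, HIF and IAP pathway genes was not tested.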

How the data were processed

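Liver RNA sequencing of 12 samples in 3 groups of 4 was analysed, with groups and replicate numbers read from the sample titles. Per the file headers, the authors deposited raw read counts by gene symbol, in a file per sample, and RPKM values for all samples together, which are scaled by gene length and library size. STAR 2.7.10a and mm10 are named in the submitters' processing notes; the counting tool, its annotation and its use of strand are not given in the sources used here. In each library 70.1 to 74.7% of counts among genes with 1 to 20 counts were even, so the deposited counts look like read ends, and 244 to 296 genes had 0 counts but an RPKM above 0, so counts and RPKM do not rest on identical reads. Beside the samples the RPKM table held 12 columns that match no sample and were not analysed here.

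Genes were filtered with filterByExpr of edgeR 4.0.16 (R 4.3.3), which kept 14172 of 24787 genes holding 99.98% of counts. After TMM scaling, 1 quasi-likelihood model was fitted to all 3 groups, and a gene was called changed when its Benjamini-Hochberg adjusted p, taken over every gene tested, was under 0.05. All tests were two-sided. Each 95% interval comes from the fitted change and its SE. DESeq2 1.42.0, limma 3.58.1 (voom, and log2 of RPKM plus 0.1 or 1), other scalings and filters, a replicate block and the omission of each library were alternatives. The fit was tested on simulated data. Within groups, replicates differed beyond counting error (chi-square divided by genes 35.9 or more), and depth bounds precision by counting error only.

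The ligase genes, the 11 pathway lists and the marker lists were chosen with earlier results of these data known. Named genes are the 10 ligase genes, every list gene called in any comparison, and the 2 genes of smallest unadjusted p in a list with no call; any gene named beyond that rule was chosen after its values were seen. Gene coordinates are from GENCODE M21 (GRCm38), which matched 24255 of 24787 symbols and all 10 ligase genes. Promoters are from RefSeq on GRCm38.p6. No sequence of Cul2 is shown. Among the genes that the naming rule gives, 1 is not reported here.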

Additional observations from a re-analysis of the deposited data

Results flagged for a closer look

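In 39 groups of 4 libraries examined, over the 10 ligase genes and 3 ratios, a single library stood far from the other 3 in 3 groups, where chance alone does so in about 1 of 20. In HFD+MEC1 livers, replicate 4 had 122 CPM of Xiap, below the other 3. In ND livers, replicate 3 had 116 CPM of Xiap, below the other 3. For Cul2, ND replicate 2 had 47.7 CPM, above the other 3 ND libraries. The gap to the nearest library took up 0.839 of the group's range for Xiap in HFD+MEC1, 0.918 for Xiap in ND and 0.933 for Cul2. No ligase gene passed the edgeR threshold with or without any of these libraries.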

How the results depend on the processing

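The count of ligase genes past the threshold was 0 in each comparison under every alternative run, and without any single library, except that plain library totals gave 1 in HFD against ND (Cul4a). Over all genes, HFD+MEC1 against HFD gave 4 calls, and 0 with plain library totals, 17 with no filter, 389 with DESeq2, 1 with limma-voom, 2 in a fit of those groups alone, 21 with the replicate block, 0 on RPKM plus 0.1, 1 on RPKM plus 1, 1 on RPKM with a filter, and 0 to 460 without single libraries (460 without HFD+MEC1 replicate 1, 72 without HFD replicate 4). DESeq2 called 1388 genes in HFD against ND, against 893, and 1155 in HFD+MEC1 against ND, against 644; leaving out single libraries gave 423 to 1109 and 334 to 678. The share of calls that were higher in HFD than in ND was 53.2%, but 79.5% with plain library totals and 72.7% on RPKM; in HFD+MEC1 against ND it was 47.2%, 66.8% and 63.3%. Of the p53 pathway genes, a list whose alternatives were chosen after seeing the data, 3 to 8 rose in HFD against ND and 3 to 5 in HFD+MEC1 against ND without single libraries, and 7 in HFD+MEC1 against ND with DESeq2. Replicate numbers did not pair the libraries: same-numbered pairs correlated from -0.0942 to 0.133, 1 of 12 above 0.1, and 4 libraries matched their own number best. The replicate block gave 896, 21 and 716 calls in HFD against ND, HFD+MEC1 against HFD and HFD+MEC1 against ND, and ended the calls of Aen and Casp8. Signs of small log2 changes turned. For HFD+MEC1 against HFD, plain library totals gave Ddb1 -0.0057 and Birc2 -0.00021. For HFD against ND, plain totals, RPKM plus 0.1 with or without a filter and RPKM plus 1 gave Cul2 0.047, 0.016 and 0.015 and Xiap 0.082, 0.049 and 0.047, and for HFD+MEC1 against ND Cul2 0.057, 0.058 and 0.053. The Cul4a over Cul4b ratio for HFD against ND was 0.032 on RPKM plus 1. Without single libraries, for HFD+MEC1 against HFD, Crbn lay between -0.072 and 0.023, Mdm2 -0.095 and 0.0012, Xiap -0.034 and 0.12, Birc2 -0.027 and 0.12 and Birc2 over Xiap -0.12 and 0.074. For HFD against ND, Xiap lay between -0.097 and 0.065 and Cul4a over Cul4b -0.11 and 0.11. For HFD+MEC1 against ND, Cul2 lay between -0.052 and 0.039, Cul4b -0.084 and 0.10, Rbx1 -0.066 and 0.086, Mdm2 -0.038 and 0.12, Xiap -0.027 and 0.071 and Cul4a over Cul4b -0.042 and 0.17. The cause of these shifts was not tested.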

Other observations

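The tested genes most like 5 of the ligase genes over the 12 libraries were found by Pearson's correlation of log2 CPM among 9192 genes with a mean of at least 5 CPM. These correlations describe the libraries, share their scaling and group structure, and are the highest of a long search. Crbn was most like Tomm70a, an import receptor of the outer mitochondrial membrane (r = 0.89, rho = 0.93), and Dnajc28 (r = 0.88, rho = 0.86). Vhl was most like Ice1 (r = 0.88, rho = 0.90) and Strn3 (r = 0.87, rho = 0.90). Mdm2 was most like Lmo7 (r = 0.88, rho = 0.95) and Fkbp1a (r = 0.86, rho = 0.80). Xiap was most like the circadian factor Clock (r = 0.94, rho = 0.88) and Fem1c, a CUL2 receptor (r = 0.90, rho = 0.52). Birc2 was most like Scyl3 (r = 0.87, rho = 0.79) and Nemf, a factor of ribosome quality control (r = 0.83, rho = 0.83).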
